A study of Mus musculus with 18 samples.

Results

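The comparison set transported female mice against littermates that stayed in the laboratory, in the hypothalamus, and rested on the 6 hypothalamus arrays of a series of 18. These are the arrays whose titles name hypothalamus and either stress or control, 3 in each group, and the whole transcriptome was compared between them. Stressed mice were carried over 1000 km for nearly 10 h at an average of 50 km/h, figures that cannot all hold, since distance over speed gives 20 h. Control mice were housed in the same laboratory and not transported. All mice were BABL/c females as the labels spell the strain, taken as 10 pairs of littermates at 6 weeks of age, split at random between the groups and superovulated at 9 weeks. When the transport took place within those weeks is not given in the sources used here. In each group the high sample was the 1 mouse with most ovulated oocytes, the low sample the 1 mouse with fewest, and the pool was mixed from the other 8 mice. Each group thus held 2 single animals and 1 pool, no mouse lacked superovulation, and the stressed and control samples of a class were not stated to be littermates.

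The hypothalamus controls reproduction through gonadotropin-releasing hormone, whose neurons are driven by kisspeptin cells that carry sex steroid receptors. It also starts the endocrine stress response, in which corticotropin-releasing hormone and vasopressin drive pituitary corticotropin and the adrenal glucocorticoid that feeds back on both systems. A dissected hypothalamus borders on the thalamus above, the midbrain behind, the meninges and the bone of the skull below, and the pituitary stalk.

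All 8 hypothalamic peptide genes checked (Hcrt, Pmch, Oxt, Avp, Trh, Ghrh, Npy and Cartpt) read higher in each of the 6 arrays than in any pituitary or ovary array. Array medians of the log2 signal over the 22180 genes lay between 5.58 and 5.67, and pairs of arrays correlated across genes at 0.967 to 0.993. The 2 pools were the most alike pair, across the groups. The number of arrays limits the precision: the median standard error of a stress minus control difference was 0.23 on the log2 scale. P-values measure the spread between these samples alone. Nothing in the labels says whether arrays were hybridised in batches.

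Of 22180 genes, 0 (0%) passed an adjusted p under 0.05 between stressed and control hypothalamus in limma's moderated test, and the lowest adjusted p was 0.99998. An unadjusted p under 0.05 was reached by 110 higher (0.496%) and 135 lower genes (0.609%), 245 in all (1.1%). Of these, 5 higher and 12 lower genes lay at or above the median level of all genes, and the others below it. With ovulation class as a paired block the count at an unadjusted p under 0.05 was 923, and still 0 genes passed. The count was 409 without the stressed pool, 407 without the control pool and 417 without both, again with 0 passing. Differences below are therefore values, given for each class pair, and none of them stands beyond the spread between samples after adjustment unless a sentence says so.

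The stressed minus control difference of a gene in one class said little about the same gene in another. Across all genes, class differences correlated at -0.08 between high and low, -0.04 between high and pool, and 0.04 between low and pool, a description over genes that share arrays. The median absolute difference was 0.22 in the high pair, 0.20 in the low pair and 0.14 in the pool pair, where 8 mice were averaged on each side. A difference past 2-fold was found for 222 higher (1%) and 201 lower genes (0.906%) in the high pair, 98 higher (0.442%) and 134 lower (0.604%) in the low pair, and 71 higher (0.32%) and 48 lower (0.216%) in the pool pair. Groups did not overlap for 1007 genes (4.54%), of which 430 were higher (1.94%) and 577 lower (2.6%) in stressed arrays. By mean difference alone, 44.5% of all genes read higher and 55.5% lower, and of genes at or above the median level (5.63) 39.1% read higher and 60.9% lower. All 3 class differences pointed up for 2048 genes (9.23%) and down for 3176 (14.3%).

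Genes that control gonadotropin-releasing hormone secretion showed no common direction. Of 20 measured members, 12 read higher and 8 lower in stressed hypothalamus, with a median difference of 0.01 against -0.02 over all genes, and 0 passed. Gnrh1, the releasing hormone itself, read 4.82, 5.01 and 5.30 in stressed high, low and pool samples, against 4.97, 4.94 and 4.85 in controls. Its groups overlapped, the stressed pool was the highest array, and the 95% interval of the mean difference ran from -0.33 to 0.57. Kiss1, the kisspeptin precursor, read 5.52, 4.91 and 4.72 in stressed samples, against 4.78, 4.66 and 5.11 in controls. Its single-mouse pairs were higher under stress and its pool pair was lower. Esr2, estrogen receptor beta, read 5.76, 5.68 and 5.61 in stressed samples, against 5.41, 5.34 and 5.56 in controls, and its groups did not overlap. Esr1, estrogen receptor alpha, differed by 0.08 and Pgr, the progesterone receptor, by -0.10, each with pairs of both signs.

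Gpr101, an orphan receptor rich in the hypothalamus, differed by much the same in each pair. It read 8.14, 8.24 and 8.17 in stressed samples, against 8.49, 8.52 and 8.48 in controls, so that the stressed arrays all lay below the control arrays with pair differences of -0.35, -0.28 and -0.31. Prdm12, a transcription factor of arcuate proopiomelanocortin neurons, had the same shape, at 6.29, 6.35 and 6.28 in stressed samples and 6.69, 6.66 and 6.50 in controls. Galr1, a galanin receptor, was lower in each pair, by -0.33, -0.32 and -0.16. Npvf, the precursor of gonadotropin-inhibitory peptides, read 5.09, 5.21 and 7.12 in stressed samples, against 6.05, 4.97 and 6.64 in controls, with more spread between single mice and pools than between groups.

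Genes of the endocrine stress axis showed no common direction either. Of 15 members of the corticotropin-releasing hormone and urocortin list, 8 read higher and 7 lower, the median difference was 0.01, and 0 passed. Medians were 0.14, 0.04 and -0.08 in the high, low and pool pairs. Crh read 5.70, 5.98 and 5.52 in stressed hypothalamus, against 6.05, 5.70 and 5.34 in controls, a mean difference of 0.04 with a 95% interval from -0.50 to 0.58. Crhbp, which binds the hormone, differed by 0.15 and the urocortin Ucn3 by 0.19. The high and low pairs of both were higher under stress, and the pool pairs were lower by -0.06 and -0.04. Nr3c1, the glucocorticoid receptor, was lower in each pair, by -0.18, -0.11 and -0.08. Among 24 genes known to be induced by glucocorticoid, 12 read higher and 12 lower. In the high, low and pool pairs 13, 7 and 18 of them read higher. Fkbp5, a chaperone and common readout of the receptor, read 5.79, 5.83 and 6.27 in stressed samples and 5.80, 5.85 and 5.99 in controls. Sgk1, a kinase of the same kind, had pair differences of 0.87, -0.38 and 0.37. Single-mouse ovaries averaged 9.97 for Fkbp5 and 9.31 for Sgk1, against 5.82 and 6.47 in single-mouse hypothalamus. The stressed pool carried ovarian transcripts, as given below, and their part in the pool values of these genes was not tested.

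Immediate early genes, which neurons transcribe within minutes of activity, divided by class. In the high pair 19 of 22 read higher under stress with a median of 0.27, in the low pair 6 did with a median of -0.11, and in the pool pair 10 did with a median of -0.05. Egr1 read 7.14, 5.92 and 7.90 in stressed samples, against 6.90, 6.64 and 7.97 in controls. The mean difference over the list had a median of 0.05, and no member passed.

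No magnocellular or feeding gene passed, and for several the pairs differed in sign. Of 8 vasopressin and oxytocin genes 6 read higher and 2 lower, with a median of 0.04. Of 19 feeding peptide and receptor genes 9 read higher and 10 lower, with a median of -0.01. Avp, vasopressin, read 11.92, 11.88 and 11.18 in stressed samples and 12.08, 11.67 and 11.16 in controls. Oxt, oxytocin, differed by 0.07 with an interval from -0.61 to 0.74. Their receptors Avpr1a and Oxtr differed by -0.26 and -0.25, each lower in 2 of 3 pairs. Npy differed by 0.04 and Hcrt by -0.05, and Cartpt by less than 0.01. The interval of Npy was -0.52 to 0.60, while that of Hcrt ran from -1.35 to 1.25. Hcrt read 8.04, 8.06 and 9.88 in stressed samples and 8.01, 8.32 and 9.79 in controls, so that pools and single mice lay further apart than the groups. Pmch, melanin-concentrating hormone, had pair differences of 0.00, 0.51 and 0.27. The single-mouse pairs opposed each other for Nts, at -0.95, 0.73 and -0.11 in the high, low and pool pairs, and for Mc4r, at -1.07, 0.53 and -0.28. Sst, somatostatin, was lower in each pair, by -0.50, -0.10 and -0.18.

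Pomc, the precursor of corticotropin and melanocortins, read 6.49, 5.82 and 6.39 in stressed samples, against 6.57, 7.08 and 6.47 in controls. Its mean difference of -0.48 lay almost wholly in the low pair (-1.26). In that pair the pituitary hormone genes Prl and Gh read 6.55 and 6.15 in the stressed low mouse, against 9.26 and 8.14 in the control low mouse. Whether pituitary RNA had a part in the Pomc difference was not tested. Of the other releasing hormones, Trh differed by 0.08 and Ghrh by -0.12, with pairs of both signs.

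**Figure D1:**
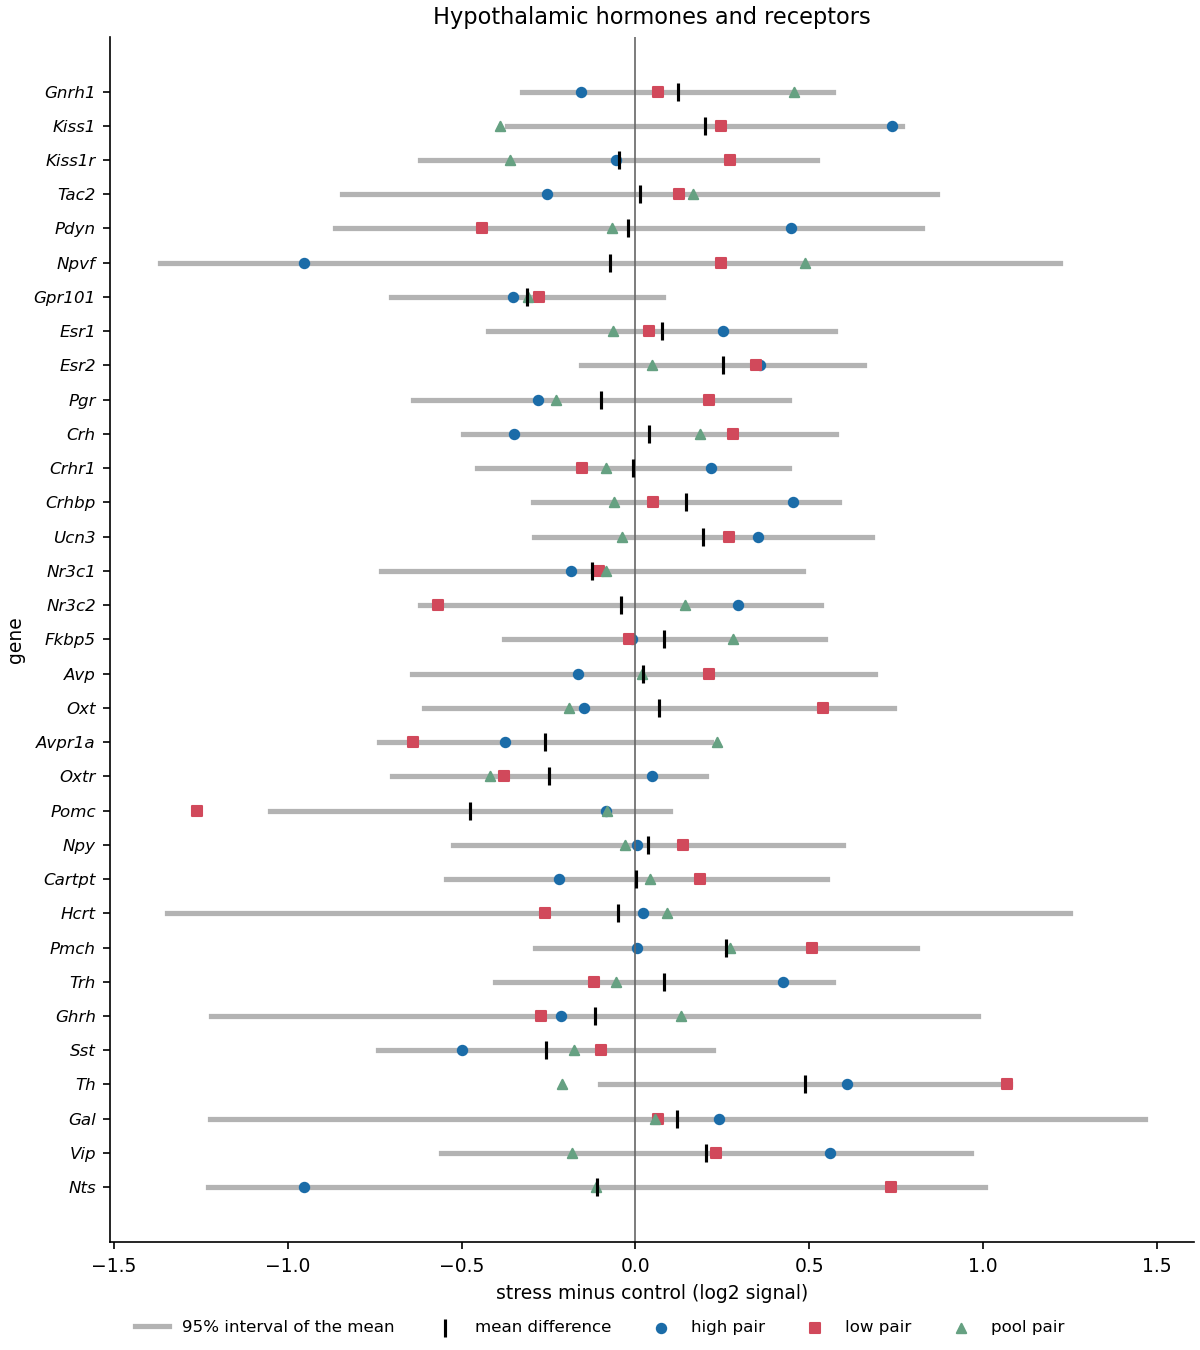
Stress minus control differences in log2 signal (x axis) of hypothalamic hormones and receptors (y axis). Symbols are the high, low and pool pairs, black ticks the means and grey bars the 95% intervals of the mean. The intervals are from the unpaired fit, so they include the spread between ovulation classes and do not measure that of the pair differences. The interval of every gene shown includes 0, and 4 single pairs lie outside their own gene's interval: the low pair of Pomc (-1.26) and the pool pairs of Th (-0.21), Kiss1 (-0.39) and Avpr1a (0.23).

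The gene with the largest mean difference over both single-mouse pairs was Slc6a3, the dopamine transporter, which marks dopamine neurons, including midbrain ones. It read 8.09 in the stressed high mouse and 8.68 in the stressed low mouse, against 6.12 and 5.86 in the control high and low mice. The pools went the other way, at 7.50 in the stressed and 8.31 in the control pool. The pair differences were 1.97, 2.82 and -0.81, and the mean of 1.33 had an interval from -0.01 to 2.66. Th, tyrosine hydroxylase of dopamine synthesis, followed the same order. It read 9.58, 9.69 and 8.87 in stressed samples, against 8.98, 8.62 and 9.08 in controls, with pair differences of 0.61, 1.07 and -0.21. The nicotinic receptor subunits Chrna6 and Chrnb3, dense in dopamine neurons, differed by 0.61, 1.64 and -0.32 and by 0.49, 1.53 and -0.57.

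Slc6a3 was the one gene that passed in any fit run here. When the 18 arrays of the series were fitted together with the animal as a random block but without the 6 pools, its hypothalamic difference was 2.39 ± 0.25 (SE) with an adjusted p of 0.00366 in limma. Leaving out the control pool alone gave 2.14 ± 0.28 (SE) and an adjusted p of 0.0175 in limma. With all 18 arrays the difference was 1.33 ± 0.48 (SE) and did not pass. For each gene these fits take a spread common to hypothalamus, pituitary and ovary. Slc6a3 averaged 5.53 in single-mouse pituitary and 5.19 in single-mouse ovary. With the 4 single-mouse hypothalamus arrays alone its adjusted p of 0.424 in limma was the lowest of any gene. The passing fits of the stress difference were chosen after the data had been seen. They leave out the control pool, whose reading went against the single mice, as do the planned tissue comparisons in which Slc6a3 passed.

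A list of 19 midbrain dopamine neuron genes, put together after Slc6a3 had been seen, gives the context of that reading. In the high pair 17 members read higher under stress, in the low pair 18 and in the pool pair 5, with medians of 0.33, 0.27 and -0.18. Slc18a2, the vesicular monoamine transporter, differed by 0.16, 0.70 and -0.28. Averaged over all pairs, the pools included, Pitx3 and Lmx1a, transcription factors of those neurons, differed by -0.01 and -0.10. Drd2, a dopamine receptor found in many regions, differed by 0.16 on that average. Without the pools 18 of the 19 members read higher, with a median of 0.34. In a dissected tissue, fewer cells of a type and less RNA per cell cannot be told apart, nor can a different share of neighbouring midbrain.

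**Figure D2:**
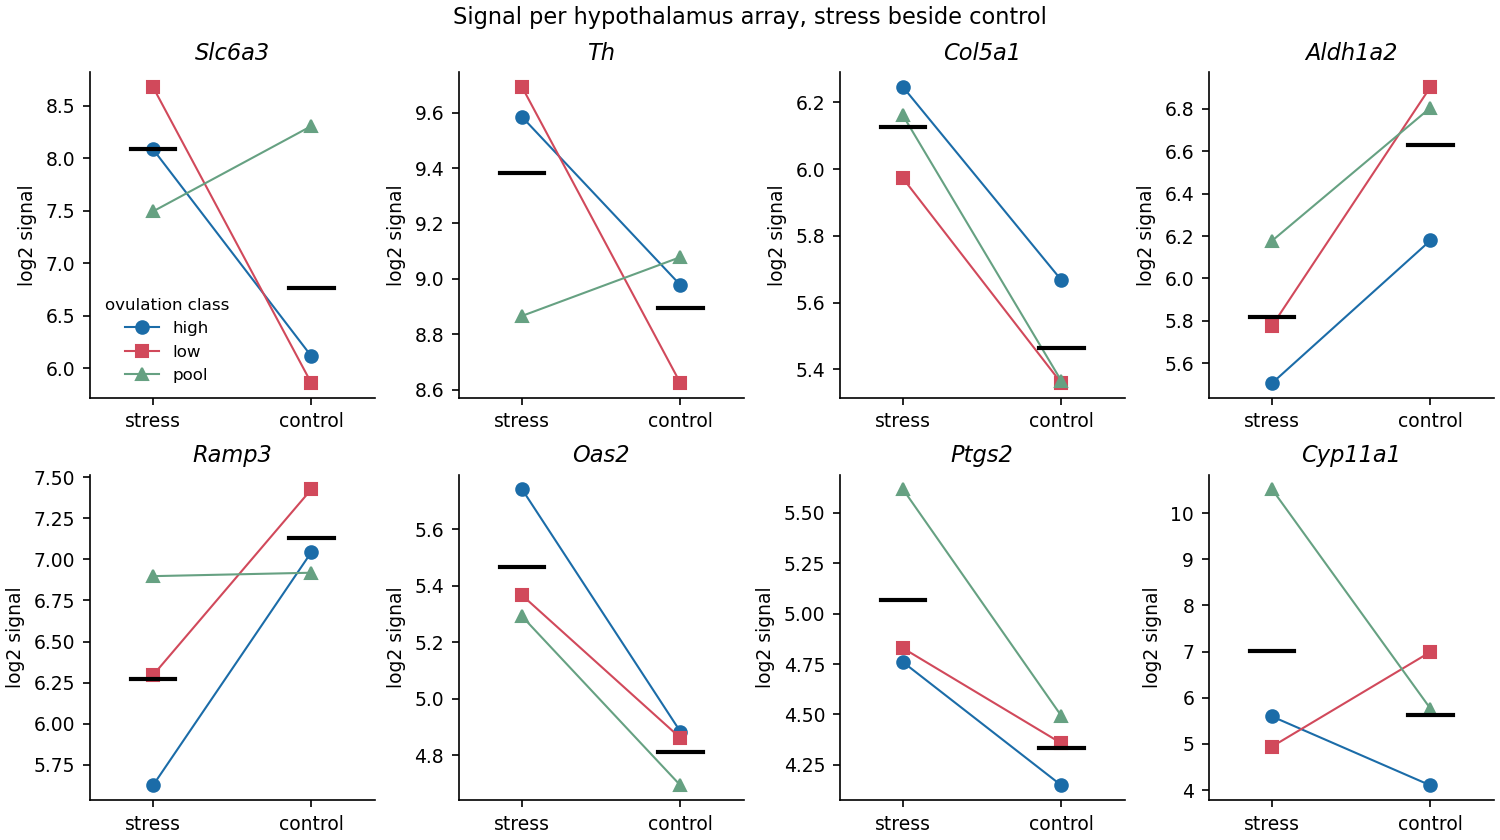
Log2 signal (y axes, which differ between panels) of 8 genes in each stressed and control hypothalamus array, with lines joining the arrays of an ovulation class and black bars at group means. Col5a1, Oas2 and Ptgs2 read higher in every stressed array than in any control array, Aldh1a2 and Ramp3 lower, Slc6a3 and Th cross in the pools, and Cyp11a1 reaches 10.52 in the stressed pool.

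Markers of forebrain next to the hypothalamus, mainly thalamus and cortex, formed the list with the lowest median. Of 23 measured members 18 read lower in stressed hypothalamus and 5 higher, the median difference was -0.29, and groups did not overlap for 5, all lower, where 2.6% of all genes were. The shift lay in the single mice, with medians of -0.70 in the high pair and -0.28 in the low pair, and not in the pools, at 0.04. Without the pools the median was -0.46. Transcripts that vary with RNA quality also differed in the high pair. The 9 nuclear long noncoding RNAs had medians of -0.30, 0.00 and 0.14 in the high, low and pool pairs, with 2, 5 and 6 higher. The 3 histone genes measured had medians of -1.35, 0.22 and 0.30, with H1f5 at -1.50, H4c8 at -1.35 and H1f2 at 0.49 in the high pair. Their part in the forebrain difference was not tested.

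Prkcd, a protein kinase C of sensory thalamus, read 6.14, 7.75 and 7.74 in stressed samples, against 7.91, 8.99 and 7.57 in controls. The stressed high mouse was the lowest array and the control low mouse the highest, while both pools lay close together. Tcf7l2, a transcription factor of thalamus and habenula, read 6.92, 7.94 and 8.24 in stressed samples and 8.45, 8.80 and 8.16 in controls. Ramp3, a receptor accessory protein, read 5.63, 6.30 and 6.90 in stressed samples and 7.04, 7.43 and 6.92 in controls, with groups that did not overlap. Synpo2, an actin-binding protein, had the same order, with pair differences of -1.19, -0.93 and -0.04. Slc17a7, the vesicular glutamate transporter of cortex and hippocampus, differed by -0.87, -1.33 and 0.07. Shox2, a homeobox factor of the thalamus, was lower in each pair, by -0.94, -0.26 and -0.36.

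Not all markers of that list took part. Calb2, calretinin, differed by 0.07, 0.12 and 0.07, Tnnt1 by 0.15, 0.41 and 0.30, and Neurod1 by 1.02, -0.06 and 0.23. Some neuronal genes from other lists, named for the size of their difference, had values of similar order. Gabra4, a GABA receptor subunit, differed by -1.12, -0.46 and 0.13, the potassium channel gene Kcnc2 by -1.36, -0.47 and -0.01, and Rgs16, a regulator of G protein signalling, by -0.97, -0.61 and 0.01. Shank3, a postsynaptic scaffold, was lower in both single-mouse pairs by -0.86 and nearly equal in the pools (-0.03). The lists of the first 2 genes, GABA and glutamate receptors and ion channels, had medians of -0.04 and -0.03 in the high pair. That of Rgs16 (suprachiasmatic markers) had 0.18 there and that of Shank3 (postsynaptic genes) -0.01. In the low pair these lists had medians of -0.04, -0.26, 0.14 and -0.13, in the same order. What the dissection contributed was not tested.

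Taken over all pairs, median differences of the hypothalamic nuclei's own markers were nearer 0. The median difference was 0.05 for 8 paraventricular and supraoptic genes, 0.03 for 11 suprachiasmatic genes, 0.07 for 9 ventromedial genes, 0.06 for 12 lateral and mammillary genes and -0.08 for 9 arcuate genes. In the same order, medians were 0.10, 0.18, 0.28, 0.17 and -0.08 in the high pair. In the low pair they were 0.05, 0.14, -0.04, -0.11 and -0.05. Nr5a1, which defines the ventromedial nucleus and is also a steroidogenic factor of gonads, read 6.24, 5.86 and 6.29 in stressed samples, against 5.62, 5.74 and 5.78 in controls. Its groups did not overlap. Ovaries of single mice averaged 9.09 for it against 5.86 in single-mouse hypothalamus, and without the pools its difference was 0.37. Hmx2, a factor of arcuate neurons, had pair differences of 1.03, -0.35 and 0.14.

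**Figure D3:**
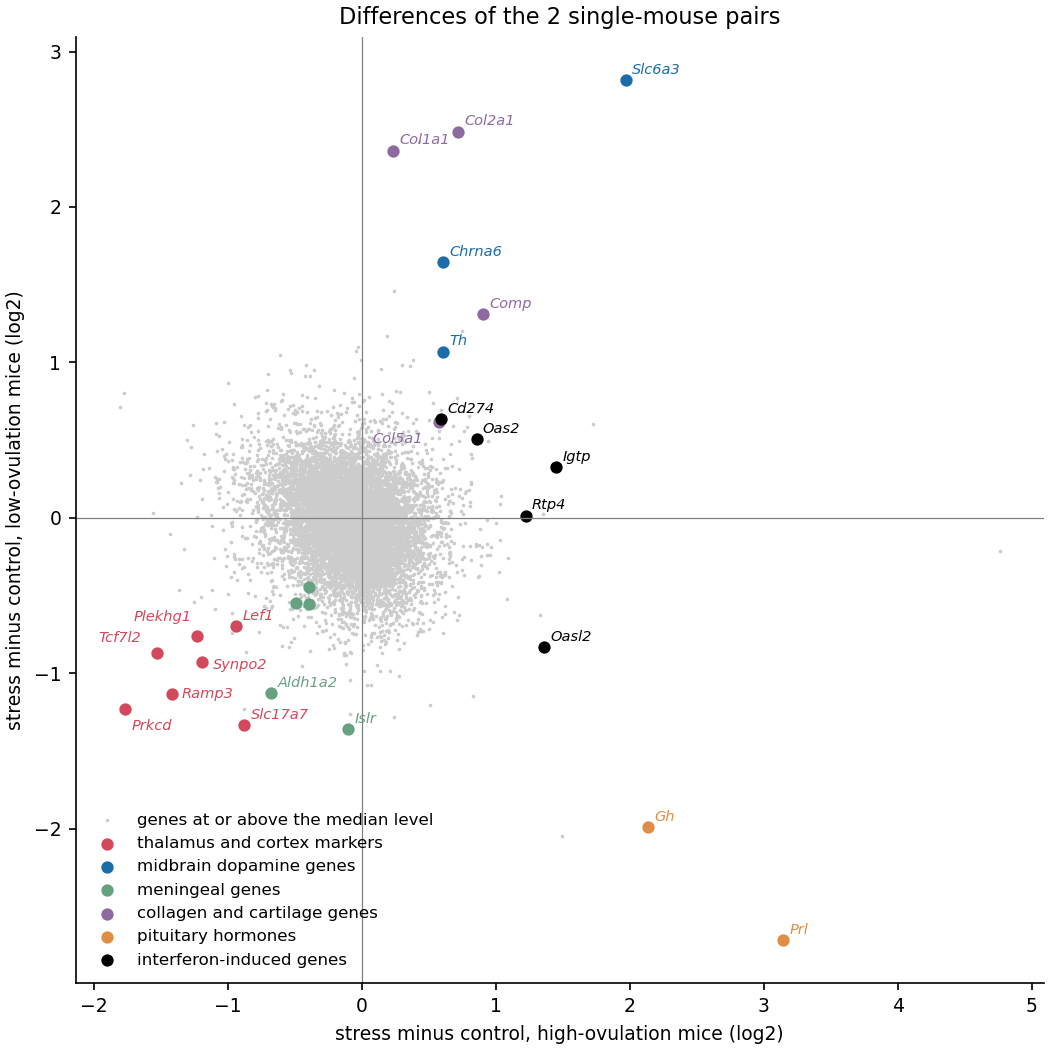
Stress minus control differences (log2) of the high pair (x axis) and the low pair (y axis) for genes at or above the median level in grey, with named groups in colour. Slc6a3 lies far up and to the right (1.97 and 2.82), Prkcd, Tcf7l2 and Ramp3 at the lower left, and Prl and Gh at the lower right, where the pairs oppose each other.

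Genes of the meninges, the membranes around the brain, split into 2 patterns. Of 17 list members 11 read lower and 6 higher under stress with a median of -0.18. In the high, low and pool pairs the medians were 0.01, -0.37 and -0.12, with 9, 6 and 6 members higher. Aldh1a2, which makes retinoic acid in meningeal fibroblasts, read 5.51, 5.78 and 6.18 in stressed samples, against 6.18, 6.90 and 6.81 in controls. All 3 stressed arrays lay below the lowest control array, the stressed pool only just, and the difference of -0.81 had an interval from -1.40 to -0.21. Igfbp2, a binding protein of insulin-like growth factors, read 6.08, 6.13 and 6.41 in stressed samples, against 6.57, 6.68 and 6.83 in controls, again without overlap. Igf2, the growth factor, was lower in each pair by -0.39, -0.45 and -0.39. Ptgds, a prostaglandin synthase of leptomeninges, was lower by -0.39, -0.56 and -0.24. Osr1, a transcription factor of mesenchyme that is not on the list and was named for its even pair values, differed by -0.45, -0.96 and -0.58. Islr, a secreted fibroblast protein, differed by -0.10, -1.36 and -0.72, and Slc6a13, a GABA transporter of leptomeninges, by 0.12, -0.94 and -0.72.

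Collagen genes of the same list read the other way. Col1a1, the main fibrillar collagen, read 6.64, 8.95 and 7.48 in stressed samples, against 6.41, 6.59 and 6.71 in controls, so that the stressed low mouse stood far above the rest. Lum, the proteoglycan lumican, differed by 0.31, 0.81 and 1.15 and Col3a1, another fibrillar collagen, by 0.38, 0.11 and 1.33. For both the stressed pool was highest, and single-mouse ovaries averaged 9.07 and 10.79, well above single-mouse hypothalamus (4.42 and 5.44). Col5a1, a minor fibrillar chain, was steadier, with pair differences of 0.58, 0.61 and 0.80 and 0.60 without the pools. It too read higher in single-mouse ovaries, at 8.02 on average, than in single-mouse hypothalamus (5.81). Col4a1 of basement membrane had pair differences of 0.47, 0.24 and 0.61, also without overlap, and averaged 9.87 in single-mouse ovaries, against 5.87 in single-mouse hypothalamus. The 22 members of the collagen and basement membrane list were 10 higher and 12 lower, with a median of -0.01 that centring of the arrays moved to 0.00.

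The stressed low mouse also carried transcripts of bone and cartilage. Col2a1, the cartilage collagen, read 7.99 there, against 6.16 in the stressed high mouse, 5.63 in the stressed pool, and 5.44, 5.50 and 5.89 in controls. In the same mouse Comp, a cartilage matrix protein, read 6.39, Ibsp, bone sialoprotein, 5.50, and Mmp13, a collagenase of growth cartilage, 5.43. No control array exceeded 5.33, 4.04 and 3.70 for those genes. On a list of 23 bone and cartilage genes assembled after these values had been seen, medians were 0.21, 0.44 and 0.01 in the high, low and pool pairs. In the same order 19, 18 and 12 members read higher, so the direction was not that of the low pair alone. Col1a1 belongs to that list too, and its part in a bone or cartilage signal was not tested.

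Vascular and myelin genes lay a little lower under stress. Of 18 endothelial and mural genes 16 read lower and 2 higher, with a median of -0.16, and 7 were lower in all pairs, where 14.3% of all genes were. Acta2, smooth muscle actin, differed by -0.25, -0.52 and -0.44, and Flt1, a receptor of vascular growth factor, by -0.16, -0.13 and -0.14 without overlap. Of 14 oligodendrocyte genes 12 read lower, with a median of -0.17. Cldn11, a tight junction protein of myelin, read 10.22, 10.05 and 10.20 in stressed samples, against 10.37, 10.51 and 10.51 in controls. Genes at or above the median level also leaned lower, with a median of -0.03. Microglial genes were 9 higher and 6 lower.

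**Figure D4:**
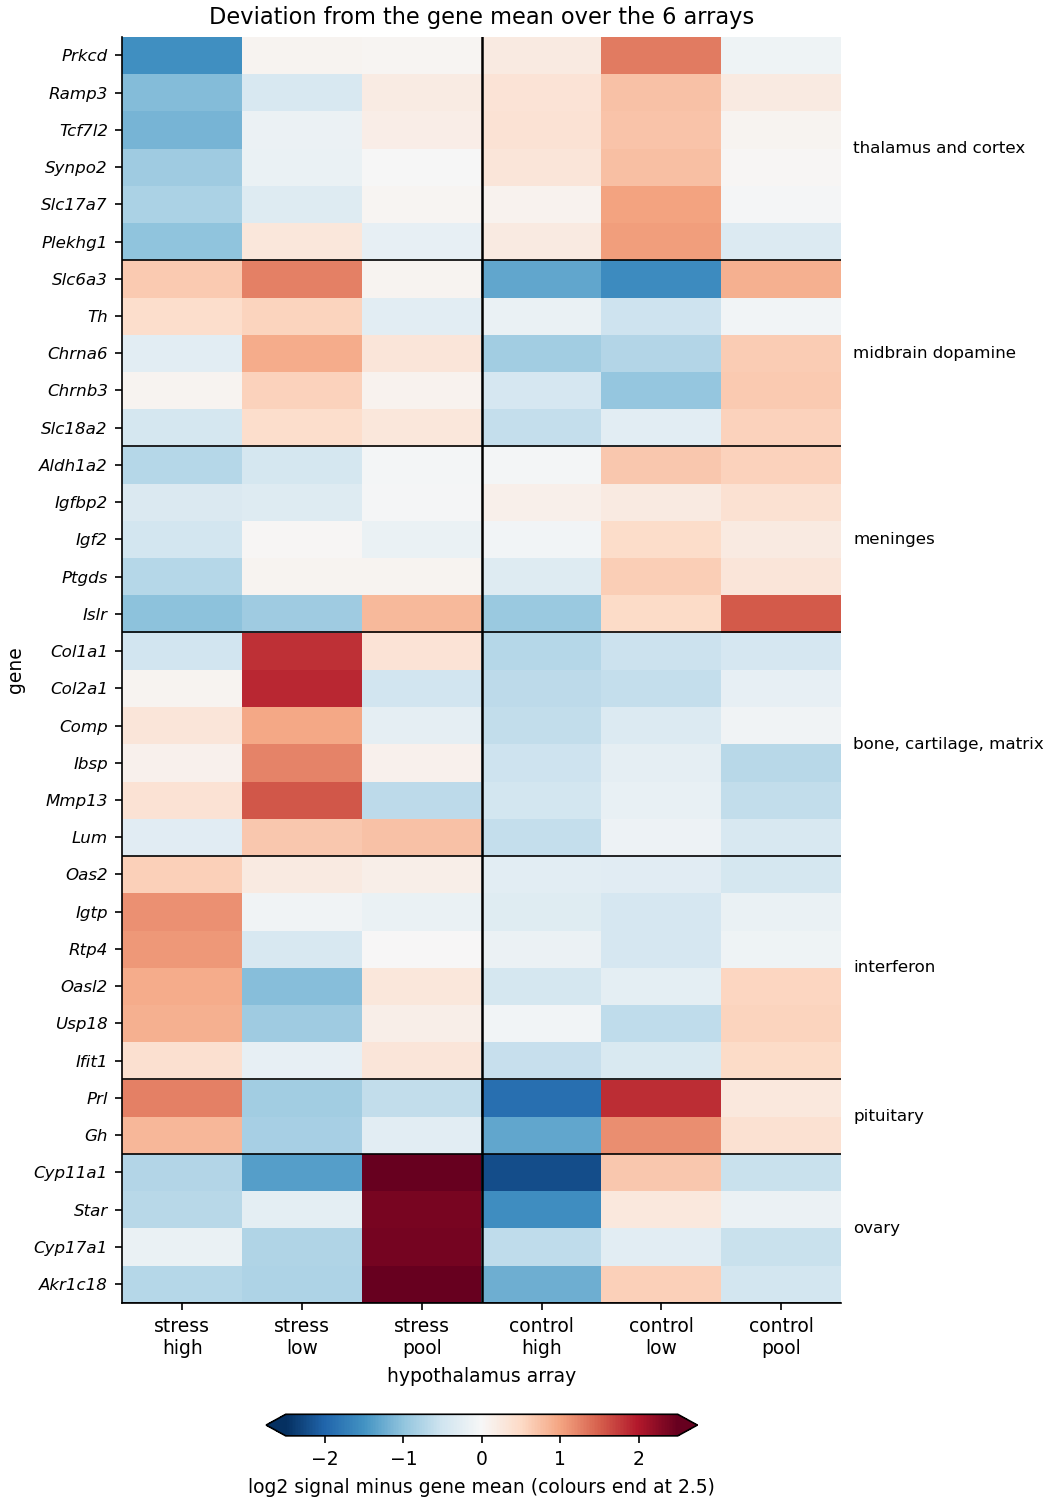
Log2 signal minus the gene's mean over the 6 arrays (colour, ending at 2.5) for markers of neighbouring regions and other tissues and for interferon-induced genes (rows), in stressed and then control arrays (columns). The 6 thalamus and cortex markers drawn are lowest in the stressed high mouse and highest in the control low mouse, Col1a1, Col2a1, Comp, Ibsp and Mmp13 peak in the stressed low mouse, Oas2, Igtp, Rtp4, Oasl2 and Usp18 in the stressed high mouse, and ovary genes in the stressed pool.

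Interferon-induced genes, which cells switch on against viruses, were the defence list with the highest median. Of 28 measured members 20 read higher and 8 lower under stress, the median difference was 0.17, and groups did not overlap for 5, all higher, where 1.94% of all genes were. The shift was mostly that of 1 mouse pair: medians were 0.56 in the high pair, 0.04 in the low pair and 0.02 in the pool pair, with 25, 16 and 14 members higher. No member passed. Transcripts of blood cells also read higher in that pair: 6 of 7 did, with medians of 0.48, -0.10 and 0.09 in the high, low and pool pairs. The neutrophil genes S100a8, Ngp, S100a9 and Ltf differed by 1.27, 0.90, 0.23 and 0.09 in the high pair and Camp by -0.40, and all 7 genes lay below the median level. The RNA quality transcripts given above with the forebrain markers differed in the same pair. The part of these in the interferon values was not tested.

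Oas2, which makes the activator of a ribonuclease that degrades viral RNA, read 5.74, 5.37 and 5.29 in stressed samples, against 4.88, 4.86 and 4.69 in controls. Every stressed array lay above every control array, and the difference of 0.65 had an interval from 0.20 to 1.10. Without the pools the difference was 0.68. Single-mouse ovaries averaged 7.47 for Oas2, against 5.21 in single-mouse hypothalamus. Xaf1, an interferon-induced apoptosis factor, read 6.04, 5.66 and 5.52 in stressed samples and 5.44, 5.48 and 5.14 in controls. Ifit3b, of the family that binds foreign RNA, read 3.04, 3.10 and 3.08 in stressed samples and 2.61, 2.65 and 2.44 in controls. These readings lie below the lower quartile of all genes (4.05), and its near-identical neighbour Ifit3 had pair differences of -0.01, -0.07 and -0.39, so which copy was measured is uncertain. Cd274, a ligand that restrains T cells, read 6.45, 6.52 and 6.15 in stressed samples and 5.86, 5.89 and 6.10 in controls.

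Other members were high in the stressed high mouse alone. Igtp, a GTPase of the defence against intracellular parasites, read 6.68 there, against 5.44 and 5.36 in the stressed low and pool samples and 5.23, 5.11 and 5.37 in controls. Rtp4 differed by 1.23, 0.01 and 0.11. Oasl2 and Usp18, also induced by interferon, were higher in the high pair and lower in the others, by 1.36, -0.83 and -0.26 and by 0.96, -0.24 and -0.41. Mx1, a classic antiviral GTPase, was lower in each pair, by -0.13, -0.53 and -0.45.

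The promoters of 3 members are shown because they hold the letters that factors of the interferon response are known to bind, 2 copies of GAAA with any 2 bases between them. They were searched on both strands in windows of 250 bases before to 50 bases after each gene start. Sequences are from RefSeq (GRCm38.p6), and the 250 bases before the start are printed 5′ to 3′ along the gene's strand, with matches in capitals, where TTTC marks the opposite strand. Igtp lies at chr11:58199306-58199555 on the plus strand, Ifit3b at chr19:34607707-34607956 on the plus strand and Gbp7, a guanylate-binding protein, at chr3:142530086-142530335 on the plus strand.
Igtp: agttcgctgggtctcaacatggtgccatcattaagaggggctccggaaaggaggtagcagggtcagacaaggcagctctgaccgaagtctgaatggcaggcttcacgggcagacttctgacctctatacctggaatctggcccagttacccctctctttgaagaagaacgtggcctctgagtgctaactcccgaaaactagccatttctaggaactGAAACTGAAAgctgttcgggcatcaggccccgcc
Ifit3b: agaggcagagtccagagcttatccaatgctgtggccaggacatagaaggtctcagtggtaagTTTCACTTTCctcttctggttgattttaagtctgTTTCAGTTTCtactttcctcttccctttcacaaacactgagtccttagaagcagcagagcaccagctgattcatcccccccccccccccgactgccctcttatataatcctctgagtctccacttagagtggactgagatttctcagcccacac
Gbp7: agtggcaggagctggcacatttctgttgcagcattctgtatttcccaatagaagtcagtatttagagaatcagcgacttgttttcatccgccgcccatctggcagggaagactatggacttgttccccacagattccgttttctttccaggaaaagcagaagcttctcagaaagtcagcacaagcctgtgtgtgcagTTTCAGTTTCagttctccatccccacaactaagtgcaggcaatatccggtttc

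Igtp has 1 match and Ifit3b 2 matches, and Gbp7 has 1. The motif was present in the windows of 14 of the 21 list members that have a promoter entry (66.7%), and of 657 of 16990 tested genes with one (3.87%). The list was drawn up from known interferon targets, so that share describes the list and not the response. Mx1 and Oas2 are without an entry, Xaf1 and Cd274 held no match and read higher without overlap, Gbp7 held it and differed by 0.50, 0.28 and 0.25, and Gbp3 held it and differed by 0.35, -0.08 and -0.48.

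Genes that present antigen read partly alike. Of 17 members 12 were higher, with a median of 0.08 overall and 0.31 in the high pair. Ciita, the master activator of class II genes, read 5.49, 5.58 and 5.48 in stressed samples, against 5.03, 5.20 and 5.11 in controls. H2-Ab1, a class II chain, was higher without overlap, by 0.79, 0.59 and 0.14, while its partner H2-Aa differed by 0.00, -0.57 and -0.42. H2-K1, a class I chain, differed by 1.35, 0.02 and 0.44. H2 genes are close relatives, and which copy a probe set read is uncertain.

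Inflammatory genes had no common direction, 11 higher and 11 lower. Ptgs2, the inducible cyclooxygenase, was above every control array in all stressed arrays, with pair differences of 0.61, 0.47 and 1.12 and 0.54 without the pools. Single-mouse ovaries averaged 7.70 for it, against 4.52 in single-mouse hypothalamus. Cebpb, a transcription factor of acute inflammation, differed by 1.09, 0.09 and 0.51. Socs3, which dampens cytokine signalling, read 4.98, 5.08 and 5.51 in stressed samples, against 5.79, 5.80 and 5.66 in controls, lower without overlap.

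Synaptic and channel genes leaned lower, most in the low pair. Of 20 genes of presynaptic release 18 read lower by mean difference, with a median of -0.10. All 20 lay at or above the median level, where 60.9% of genes read lower. Their medians were -0.07, -0.24 and -0.01 in the high, low and pool pairs, with 9, 3 and 9 members higher. Vamp1, a vesicle fusion protein, differed by -0.37, -0.21 and -0.42, and its relative Vamp2 by -0.08, 0.47 and 0.19. Of 27 sodium, calcium and potassium channel genes 21 read lower, with medians of -0.03, -0.26 and 0.02 in the high, low and pool pairs. Lrrtm1, a synaptic adhesion protein, read 8.73, 8.87 and 9.27 in stressed samples, against 9.34, 9.56 and 9.46 in controls, lower without overlap. Clock genes were 15 lower and 4 higher with a median of -0.14. Csnk1e, a clock kinase, was lower without overlap, by -0.11, -0.27 and -0.12, and the output factor Dbp was lower by -0.21, -0.20 and -0.08. Ribosomal protein genes were 17 higher and 6 lower, yet the high pair had a median of -0.11.

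**Figure D5:**
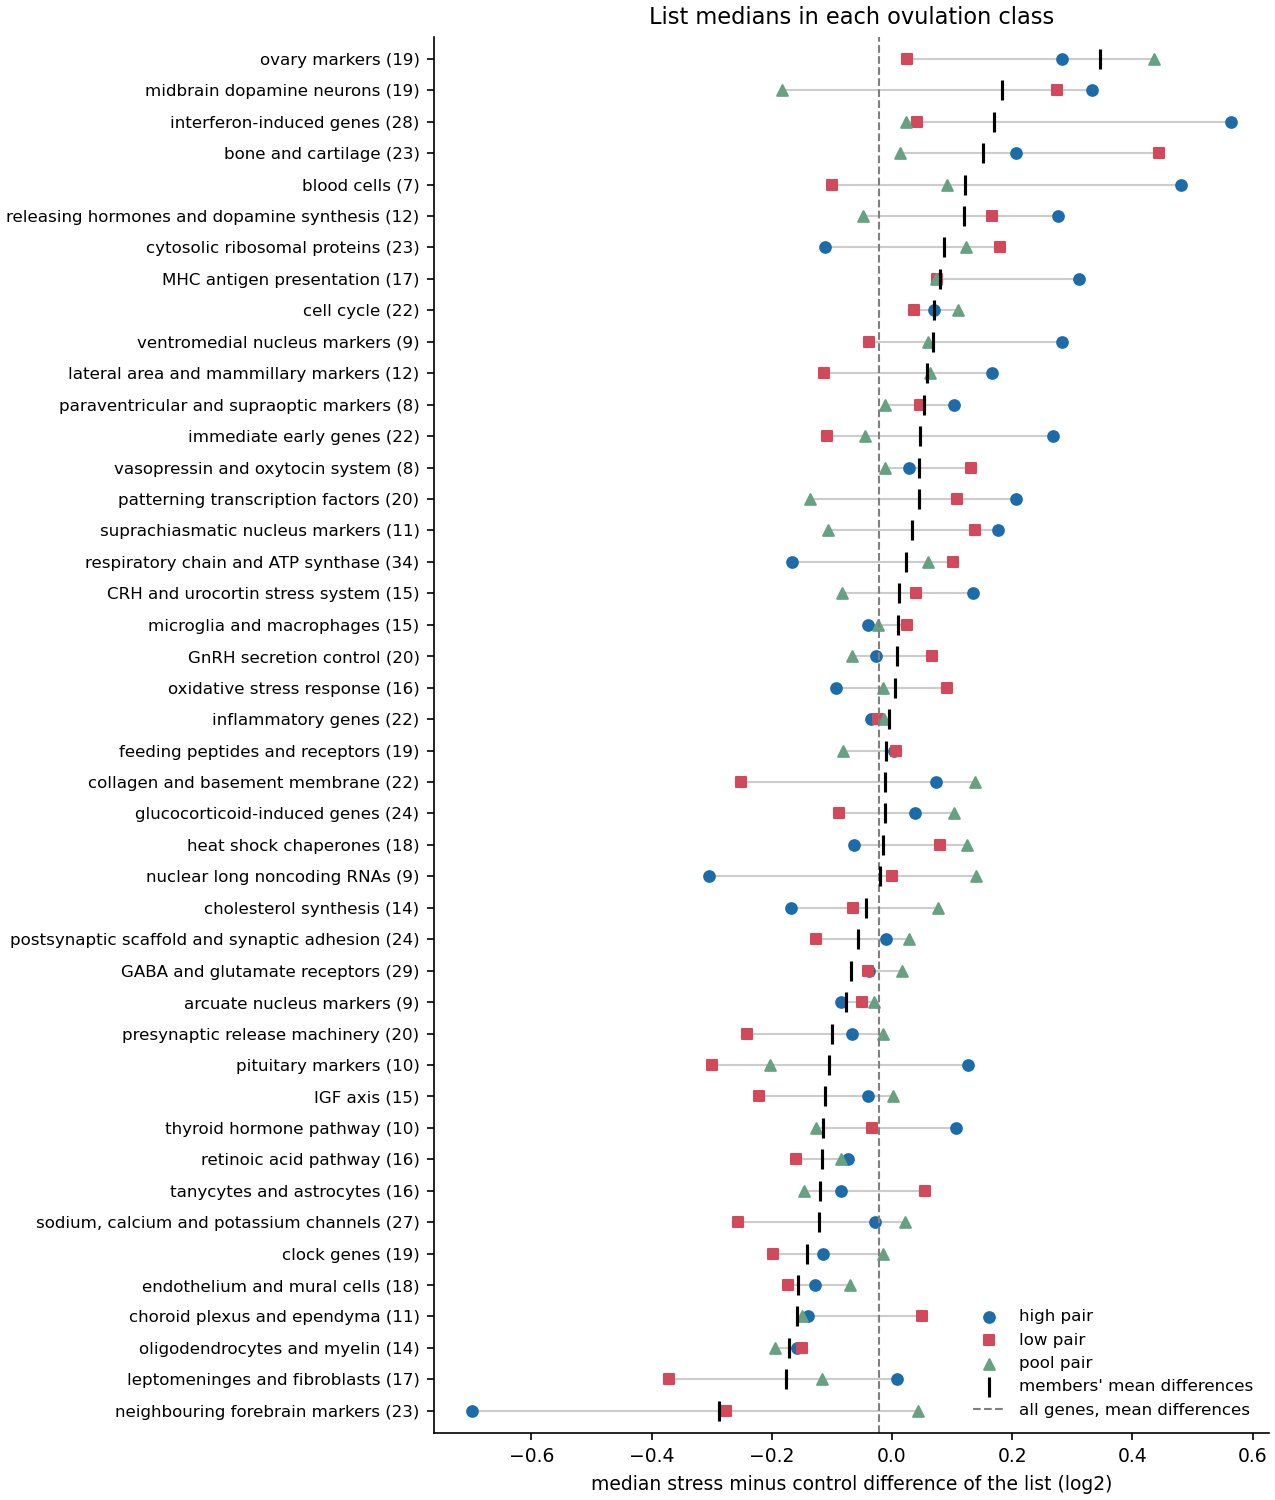
Median stress minus control difference (x axis, log2) of each gene list (y axis, number measured in brackets) in the high, low and pool pairs, with black ticks for the median of the members' mean differences and a dashed line for that of all genes (-0.02). Class medians of most lists lie on both sides of 0. Forebrain markers reach -0.70 in the high pair and interferon-induced genes 0.56.

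By the smallest of the 3 pair differences, the most even higher genes at or above the median level were Col5a1, Rpl9, Btbd35f2, Tnnc1, Vcan, Mmp2, Wdr63, Rsph3b, Wscd2, Tle2, Srsf5 and Rabggtb. Their values chose them, so they are given without a test; 690 of 10503 genes that could be named at that level (6.57%), and 756 of all 11090 there (6.82%), pointed up in every pair. Tnnc1, a troponin of slow muscle, read 7.36, 6.87 and 6.99 in stressed samples and 6.72, 6.55 and 6.68 in controls. Wdr63 and Rsph3b, parts of the ciliary axoneme, differed by 0.30, 0.98 and 0.56 and by 0.58, 0.29 and 0.46, though Foxj1, the master factor of motile cilia, was lower by -0.14, -0.71 and -0.44. Vcan, a matrix proteoglycan, differed by 0.51, 0.31 and 0.32 while Mmp2, a gelatinase, read 5.53, 5.90 and 7.13 in stressed samples and 5.22, 5.57 and 6.13 in controls. Single-mouse ovaries averaged 10.60 for Mmp2 and 8.91 for Vcan, against 5.55 and 6.05 in single-mouse hypothalamus, and the Mmp2 difference of 0.55 was 0.32 without the pools. Rpl9 and Btbd35f2 belong to families of near-identical copies, and which copy was read is uncertain. Just past the 12 came Col4a1, Clvs2 and Myl12a, with smallest pair differences of 0.24, 0.24 and 0.23, against 0.24 for Rabggtb inside.

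The most even lower genes were Aldh1a2, Tmem88b, Osr1, Igfbp2, Igf2, Zic2, Anxa3, Acot1, Atp13a5, Chrna4, Cnr1 and Mlst8, again chosen by their values, where 1643 nameable genes (15.6%) and 1703 of all genes at that level (15.4%) pointed down in every pair. Tmem88b, a membrane protein, read 8.43, 8.06 and 8.69 in stressed samples, against 8.94, 8.62 and 9.14 in controls. Zic2, a zinc finger factor also active in meninges, differed by -0.50, -0.38 and -0.53. Chrna4, a nicotinic receptor subunit, differed by -0.34, -0.57 and -0.35 and Cnr1, the cannabinoid receptor of neurons, by -0.64, -0.45 and -0.33. Mlst8, a subunit of the mTOR complexes, read 8.36, 7.84 and 8.33 in stressed samples and 8.72, 8.39 and 8.65 in controls. Dact1, Blcap and Pth2 came next, with smallest pair differences of -0.31 each, against -0.32 for Mlst8.

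Among the remaining genes at or above the median level, the smallest unadjusted p values belonged to Col1a1, Slc6a3, Sdc1, H2-Ab1, Col4a1, Cd274, Nr5a1 and Hspe1 on the higher side. Sdc1, a cell surface proteoglycan, was higher in the high and pool pairs and lower by -0.04 in the low pair, and single-mouse ovaries averaged 9.11 for it, against 5.68 in single-mouse hypothalamus. Hspe1, a mitochondrial chaperonin, differed by 0.20, 0.75 and 0.49. On the lower side they belonged to Lrtm2, Ramp3, Shank3, Shox2, Synpo2, Cox6a2, Lrrtm1 and Tspan33. Cox6a2, a cytochrome oxidase subunit, read 6.24, 6.41 and 6.39 in stressed samples, against 6.96, 6.98 and 6.57 in controls. Mki67, a marker of dividing cells, lay below the median level and read 5.83, 5.88 and 5.82 in stressed samples, against 5.11, 5.51 and 5.56 in controls.

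Transcripts of the pituitary and the ovary varied between arrays of both groups. Prl read 8.68, 6.55 and 6.80 in stressed hypothalamus, against 5.53, 9.26 and 7.69 in controls, and Gh read 7.81, 6.15 and 6.72 against 5.67, 8.14 and 7.37. Both were high in the stressed high and control low mice, so their pair differences oppose each other. On the list of 10 pituitary markers 2 read higher and 8 lower, and medians per array lay between 5.11 and 5.24 in stressed and 5.10 and 5.17 in control samples. The stressed pool carried ovarian transcripts. Cyp11a1, the first enzyme of steroid synthesis, read 5.59, 4.94 and 10.52 in stressed samples, against 4.10, 6.99 and 5.77 in controls, and Star, which feeds it cholesterol, 4.49, 4.94 and 7.56 against 3.64, 5.44 and 5.04. On the ovary list 17 of 19 genes read higher, with a median of 0.35 that was 0.03 without the pools, where 10 of 19 did. Its median level per array was 4.71, 4.78 and 5.39 in stressed high, low and pool samples, against 4.50, 4.61 and 4.32 in controls.

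Genes rich in ovary made up most of those past 2-fold higher in the stressed pool. Of 71 genes past 2-fold higher in the stressed pool, 51 (71.8%) read at least 4-fold above hypothalamus in single-mouse ovaries, where 3.54% of all genes did. The share was 8.11% of the 222 genes higher in the high pair, and 6.12% of the 98 in the low pair. It was 5.47%, 8.96% and 0% of the genes past 2-fold lower in the high, low and pool pairs. Ephx2, Prss35 and Itgb3, higher in the stressed pool by 2.26, 1.77 and 1.67, averaged 11.98, 11.49 and 10.01 in single-mouse ovaries. Genes lower in the stressed pool, such as Aldh3b2 (-1.03), Ece2 (-0.98) and Snx32 (-0.96), differed by 0.08, -0.12 and -0.21 in the high pair and by -0.59, -0.11 and -0.09 in the low pair. Tac1, the substance P precursor, was higher by 0.86 in the pool pair and averaged 4.51 in single-mouse ovaries.

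The hypothalamic stress difference was also set against the pituitary and ovary differences in a fit of all 18 arrays that treated the animal as a random block. In each of these comparisons 0 of 22180 genes (0%) passed an adjusted p under 0.05 in limma. Slc6a3, at 1.33 in hypothalamus, differed by -0.37 in the pituitary and by -0.25 in the ovary. Aldh1a2 differed by -0.81, -0.15 and 0.07 in hypothalamus, pituitary and ovary, and Oas2 by 0.65, 0.42 and 0.29. In the same order Ptgs2 differed by 0.73, 0.52 and 1.26, and Col1a1 by 1.12, 1.37 and -0.28.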

How the data were processed

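Biotin-labelled RNA was hybridised to 1 array per sample, per the labels. The deposited table gives each array a log2 signal for every transcript cluster; Transcriptome Analysis Console is the tool named in the submitters' processing notes. Its version, background correction and normalization are not given in the sources used here, and the log base was read from the range of the values (highest 13.66). Of 41345 clusters, 23521 named exactly 1 gene. Where a gene had several, the one with the highest mean over 18 arrays was kept, which left 22180 genes. No filter on low values was applied.

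Stressed and control hypothalamus (3 arrays each) were compared with R 4.3.3 and limma 3.58.1 (linear model, eBayes, 4 residual degrees of freedom, Benjamini-Hochberg adjustment over all genes, threshold 0.05, two-sided). Class differences are 1 stressed minus 1 control array, with no test. Tissues were compared as interactions on 18 arrays with the animal as a random block (correlation 0.27). Separate animals stand behind the single samples. Steps were tested on simulated data.

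Whether ovulation class pairs the arrays was checked from deviations from group means. Same-class correlations were 0.405, 0.520 and 0.724, and different-class ones ran from -0.52 to 0.135. Arrays were therefore treated as paired in the block alternative; the pairs share a class name, not animals.

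The members and the 43 gene lists were chosen with earlier results of these data known, and 2 further lists after the values were seen. Of 763 listed symbols 684 were measured; the others are not analysed here. Genes were named by rule: up to 30 passing; 12 per direction with the largest smallest pair difference of one sign at or above the median level (5.63); 8 per direction of smallest unadjusted p among the rest; a fixed set of hormones and receptors; the 5 largest differences of each list; 4 per class and direction; 11 markers of other tissues; and up to 6 per interaction. Predicted, clone, small RNA, odorant and antigen receptor symbols were not named. Further list members, Comp, Ibsp, Mmp13, Rph3a and genes just outside a rank were named after their values were seen. Alternatives were quantile normalization, centring, a level filter, the class block, array weights, an intensity trend, other cluster choices, all 18 arrays, and leaving out arrays. Figures were drawn with matplotlib 3.10.9.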

Additional observations from a re-analysis of the deposited data

Results flagged for a closer look

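The hypothalamic stress difference of Slc6a3 stood apart from those of the other tissues in 2 of the settings tried. Without the 6 pool arrays it exceeded the pituitary difference by 2.79 ± 0.34 (SE; limma, adjusted p = 0.0310) and the ovary difference by 2.80 ± 0.34 (SE; limma, adjusted p = 0.0298). Without the control pool alone the adjusted p was 0.0175 against pituitary and 0.0342 against ovary in limma, with differences of 2.52 and 2.39. With all arrays the differences were 1.70 and 1.57 and did not pass. Each of these fits takes a spread common to the tissues. The stressed arrays read 8.09, 8.68 and 7.50 in high, low and pool samples, and the control arrays 6.12, 5.86 and 8.31, so the direction holds in 2 of 3 pairs. Th, Chrna6 and Chrnb3 had pair differences of the same signs. Their part in a midbrain share of the dissected tissue was not tested.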

How the results depend on the processing

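In fits of the 6 hypothalamus arrays 0 genes passed under any setting tried. With all 18 arrays 0 passed, and 1 (Slc6a3) passed without the 6 pools; over fits of those arrays that leave out 1 hypothalamus array the count ran from 0 to 1. The tissue interactions gave 0, and 1 without the 6 pools, for pituitary and for ovary, with 0 to 1 over single arrays left out; in both the 1 arose without the control pool. Genes at an unadjusted p under 0.05 numbered 245 as reported, 15 among genes at or above the median level, where 5 higher and 12 lower of the 245 lay, 923 with the paired replicate block, 417 without both pools, 798 over all clusters, and 189 to 409 over single arrays left out; the causes were not tested. The block changed no call, and quantile normalization, centring, array weights and the intensity trend kept the count within 1.5 times. Since no difference was called, signs are given as counts. Leaving out 1 array turned the sign of 33 to 40 of 300 named genes and of 8 to 14 of 45 list medians, quantile normalization that of 4 and 3, and centring that of 2 and 3, all near 0. Of the 24 genes named for evenness, leaving out the control pool turned 2 and no other setting turned any. Scaling moved a gene by at most 0.06.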

Other observations

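Rph3a, a synaptic vesicle protein, read high in 3 hypothalamus arrays and low in the other 3. It read 9.66, 5.24 and 8.77 in stressed high, low and pool samples, against 4.90, 5.45 and 8.85 in controls, and its difference of 4.76 in the high pair was the largest of any gene at or above the median level in that pair. Single mice averaged 5.35 in pituitary and 4.92 in ovary.

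Zfp931, a zinc finger protein, was lowest in the stressed high mouse, at 4.66, against 6.43 in the control high mouse, and its low pair differed by 0.80.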
